A study of Mus musculus with 6 samples.

Results

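RNA of 10 genes used to mark plasmacytoid dendritic cells (pDC) was compared between c-Jun/JunB-deficient and control conventional type 1 dendritic cells (cDC1). The genes were taken from a list of known pDC markers, without Ccr9 and the factors that define the lineage. The rule uses no measured value, but the choice was made with earlier results of these data known. They are Siglech, Bst2, Ly6a, Ly6d, Rnase6, Ptprs, St8sia4, Kmo, Bcl11a and Runx1. All 10 were among the 54532 genes counted in the files and among the 12894 genes that had enough reads for the test. Siglech, a surface lectin of pDCs, lay higher in all 3 c-Jun/JunB-deficient libraries, and Ly6a and Bst2, both known as interferon-induced surface proteins, lay lower in all 3. St8sia4 also lay higher in all 3, by a small ratio of 1.16. Such separation of the groups was seen for 4 of the 10 genes and for 26% of all genes tested. The enzymes and transcription factors of the list had ratios of deficient to control means between 1.03 (Rnase6) and 1.34 (Bcl11a), and none of the 10 genes passed edgeR's test across all genes, where 3 (Siglech, Ly6a and Bst2) had an adjusted p under 0.10.

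pDCs are round, plasma cell-like dendritic cells that sense viral nucleic acids through endosomal Toll-like receptors and release large amounts of type I interferon. They share with cDCs the need for the cytokine FLT3L and therefore grow beside cDC1 and cDC2 in FLT3L cultures of bone marrow. Unlike cDC1, mouse pDCs carry B220 on their surface, and they depend on the transcription factor E2-2 (Tcf4) and on partners of it such as Bcl11a.

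Bone marrow of mice was cultured with 80 ng/mL FLT3L until day 8, and cDC1 were sorted as CD24+ CD11c+ cells that lacked B220, CD115 and CD172a. Of the 6 libraries, 3 were c-Jun/JunB fl/fl (hereafter fl/fl 1, 2 and 3), with both genes floxed and no Cre named, and 3 were c-Jun/JunB Δ/Δ Itgax-Cre (Δ/Δ 1, 2 and 3), in which both floxed genes are deleted by Cre under control of the Itgax (CD11c) promoter. Deletion in the second genotype can therefore begin only in cells that have switched this promoter on. All mice were adults of a mixed 129 Sv × C57BL/6 background, of either sex and not further given per library, and the study counts the 3 libraries of a genotype as separate mice.

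The libraries held 21693217 to 26788296 reads on genes. The targeted genes were read first. Junb stood at 314, 274 and 413 CPM (reads on the gene relative to all reads on genes of the library, scaled by edgeR) in fl/fl 1, 2 and 3 and at 110.3, 171 and 211 CPM in libraries Δ/Δ 1, 2 and 3, without overlap (log2 fold change -1.02, SE 0.247, adjusted p = 0.0729). Jun stood at 70.9, 52.4 and 63.1 CPM against 48.1, 44.2 and 60.4 CPM, with overlap (log2 fold change -0.29, adjusted p = 0.345). The labels and methods do not say which part of each gene is removed, so that reads outside that part may remain. The sorted cells carried cDC1 transcripts: Irf8 lay at 2650 to 2875 CPM and Wdfy4 at 2765 to 3785 CPM over the 6 libraries. Of 12 cDC1 markers, Xcr1 (log2 fold change -1.42) and Itgax (-1.22) were called lower, and of 10 cDC2 markers, Cd209a (2.25) and Cd4 (2.30) were called higher (adjusted p under 0.05 and log2 fold change of at least 1 in size). Itgax encodes CD11c, by which the study gated cDC1 and cDC2 alike, so that it is not particular to cDC1. Of all genes tested, 0.869% were called lower and 0.993% higher. The cDC1 markers did not all fall: 7 fold changes were below 0 and 5 above, among these Itgae (1.10, with overlap) and Cadm1 (0.32, without overlap). The value of Itgae rested on Δ/Δ 2, with 201, 891 and 228 CPM in Δ/Δ 1, 2 and 3 against 151, 206 and 258 CPM in fl/fl. Of the fold changes of cDC2 markers 8 were above 0 and 2 below. In a population sample such as this one, fewer cells of a type and less RNA per cell cannot be told apart.

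The sequences before the starts of Siglech and Bst2 are shown because these surface markers lay on opposite sides of the controls and both have an entry in the promoter table. For 8 of the 10 genes RefSeq gives a promoter window (GRCm38.p6), 12 windows in all, each from 250 bases before to 50 bases after a start. Ly6a and Ly6d had no entry. The following are the 250 bases before the start, written 5′ to 3′ on the gene's strand. Capitals mark matches to the letters TGTGGT (a Runx site), CAGGTG (an E-box, the kind of site that E2-2 binds) or the core of the interferon-stimulated response element (ISRE: GAAA, any pair of bases, and GAAA again), each on either strand.
Siglech, chr7:55767934-55768183, + strand: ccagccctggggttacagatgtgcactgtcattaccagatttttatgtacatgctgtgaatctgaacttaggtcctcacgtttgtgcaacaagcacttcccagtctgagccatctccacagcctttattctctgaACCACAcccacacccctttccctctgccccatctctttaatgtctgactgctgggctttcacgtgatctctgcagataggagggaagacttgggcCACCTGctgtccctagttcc
Bst2, chr8:71537473-71537722, − strand: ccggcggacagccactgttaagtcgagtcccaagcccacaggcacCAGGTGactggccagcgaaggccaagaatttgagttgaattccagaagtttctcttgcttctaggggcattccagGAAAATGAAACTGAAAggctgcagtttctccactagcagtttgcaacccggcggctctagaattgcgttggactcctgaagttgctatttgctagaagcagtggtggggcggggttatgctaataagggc

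The Siglech window held a TGTGGT match on the opposite strand 115 to 110 bases before the start and a CAGGTG match on the opposite strand 20 to 15 bases before it. Its last bases already lie in the first exon of the GENCODE gene. In the Bst2 window, the ISRE core matched at 130 to 121 and again at 124 to 115 bases before the start, so that the matches share letters, and CAGGTG matched at 205 to 200. Over all 32851 mouse windows of this length, the ISRE core occurred in 3.44%, TGTGGT in 16.8% and CAGGTG in 20.2%. Each of these was found in 3 of the 12 member windows, the ISRE core in that of Bst2 and otherwise in windows of Rnase6 that share bases. TGAGTCA, the site of AP-1, the dimer that c-Jun and JunB form, was in 5.2% of all windows and in 0 of the 12, and its cAMP-responsive form TGACGTCA was in 1.79% of all windows and in 1 of the 12, that of Ptprs, after the start. A match describes these letters only.

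Siglech (ENSMUSG00000051504.18, chr7:55768178-55778925, GRCm38, + strand) encodes a lectin of the Siglec family that is widely used as a surface marker of mouse pDCs. Its level was 7.78, 10.7 and 8.60 CPM in libraries fl/fl 1, 2 and 3 and 19.7, 16.5 and 37.5 CPM in libraries Δ/Δ 1, 2 and 3. The lowest Δ/Δ library lay above the highest fl/fl library, and Δ/Δ 3 stood clear of the other Δ/Δ libraries. Mean levels were 9.04 ± 1.53 CPM (SD, n = 3) and 24.5 ± 11.3 CPM, a ratio of 2.71. The log2 fold change of Δ/Δ against fl/fl was 1.44 (SE 0.317, 95% interval 0.69 to 2.18) with an adjusted p of 0.0571 by edgeR's quasi-likelihood test. DESeq2's Wald test gave 7.38e-05 for the same gene. Without Δ/Δ 1 or without Δ/Δ 2, edgeR's adjusted p was 0.0269 and 0.0263. Without Δ/Δ 3, the highest library, it was 0.0483 with a log2 fold change of 0.997, and without fl/fl 1 it was 0.239. Per kilobase of exon, Siglech stood at 2.67 CPM in the fl/fl and 7.25 CPM in Δ/Δ cells, which placed it above 33.0% and 55.6% of all genes tested.

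Bst2 (ENSMUSG00000046718.8, chr8:71534255-71537456, − strand) encodes BST2, also called tetherin or PDCA-1, which holds budding viruses at the cell surface and marks pDCs of unstimulated mice. Its levels were 109, 102 and 89.1 CPM in the fl/fl and 78.9, 70.5 and 77.5 CPM in the Δ/Δ libraries. All Δ/Δ values lay below all fl/fl values, with a smaller spread than for Siglech. The log2 fold change was -0.41 (SE 0.0895, 95% interval -0.62 to -0.19, adjusted p = 0.0572), a fl/fl to Δ/Δ ratio of 1.33. With DESeq2 the adjusted p was 0.00388, and without Δ/Δ 1 the edgeR value was 0.0410.

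Ly6a (ENSMUSG00000075602.10, chr15:74994877-74998031, − strand) encodes Sca-1, a lipid-anchored surface protein of stem cells, lymphocytes and pDCs whose transcription interferons raise. It was measured at 206, 166 and 87.8 CPM in the fl/fl and at 63.1, 25.2 and 34.4 CPM in the Δ/Δ libraries. The groups did not overlap, although fl/fl 3 lay nearer to Δ/Δ 1 than to fl/fl 2. Means were 154 ± 60.3 CPM and 40.9 ± 19.7 CPM (SD, n = 3), a fl/fl to Δ/Δ ratio of 3.75, the largest ratio among the 10 genes. The log2 fold change was -1.91 (SE 0.41, 95% interval -2.87 to -0.94, adjusted p = 0.0534). By limma-voom the adjusted p was 0.0495 and by DESeq2 0.00443, and without Δ/Δ 1 the edgeR value was 0.0110.

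Ly6d (ENSMUSG00000034634.7, chr15:74762056-74763620, − strand) encodes another lipid-anchored Ly6 protein, which appears on early B cell and pDC precursors. It was the lowest of the 10 genes in CPM, with 98, 36 and 33 reads in the fl/fl and 21, 94 and 39 reads in Δ/Δ libraries, or 3.78, 1.33 and 1.40 CPM against 0.851, 4.38 and 1.72 CPM. The highest and the lowest library both belonged to the Δ/Δ genotype, and the groups overlapped. A log2 fold change of 0.09 (SE 0.66, adjusted p = 0.961) was estimated, and its 95% interval of -1.47 to 1.64 leaves room for a change of the size seen for Siglech.

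**Figure D1:**
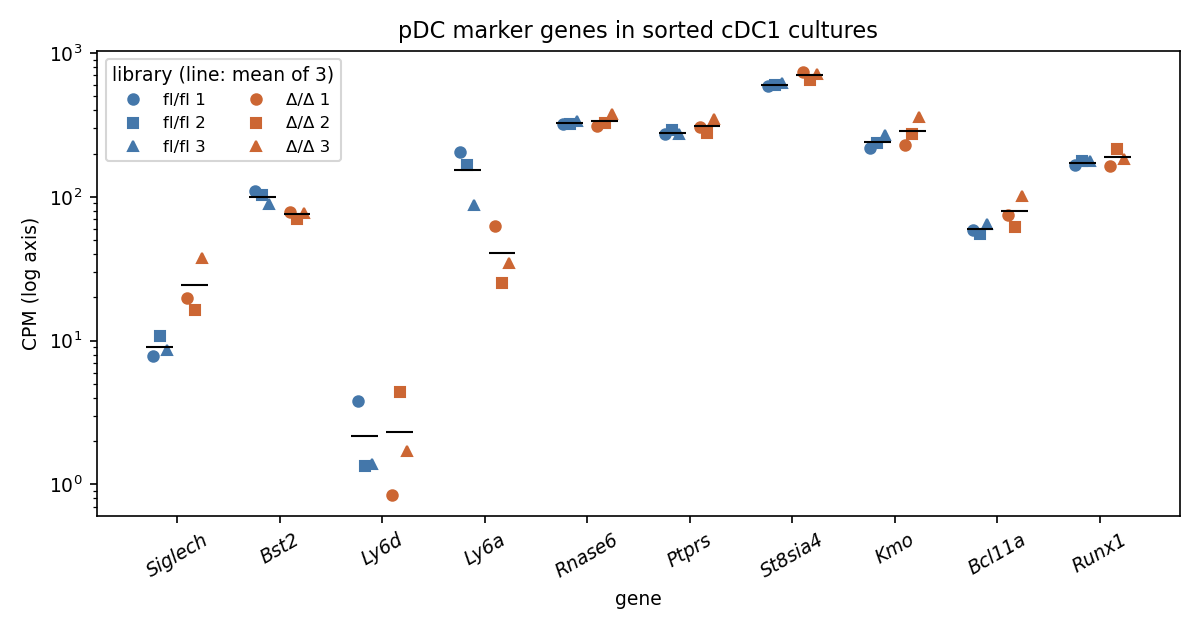
CPM (log axis) of the 10 pDC marker genes in each of the 6 libraries; blue symbols are fl/fl and orange symbols Δ/Δ libraries, the symbol shape gives the replicate number, and short lines are means of 3 libraries. Siglech lay higher in all Δ/Δ libraries (16.5 to 37.5 against 7.78 to 10.7 CPM) and Ly6a lower (25.2 to 63.1 against 87.8 to 206 CPM), while the enzymes and transcription factors lay close together.

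Of the enzymes, Rnase6 (ENSMUSG00000021880.7, chr14:51123908-51132187, + strand) encodes a secreted ribonuclease with antimicrobial activity. It was read at 321, 321 and 338 CPM in the fl/fl and at 311, 324 and 377 CPM in the Δ/Δ libraries. These ranges overlapped, with the highest and the lowest value both in Δ/Δ cells (log2 fold change 0.05, SE 0.0804, 95% interval -0.14 to 0.24, adjusted p = 0.790). Together with Bst2 and Ly6a it had one of the highest levels per length in fl/fl cells, 122 CPM per kilobase.

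St8sia4 (ENSMUSG00000040710.10, chr1:95587682-95667571, − strand) encodes the polysialyltransferase that builds polysialic acid chains on surface glycoproteins such as CCR7. With 589, 597 and 622 CPM in the fl/fl and 739, 651 and 709.8 CPM in the Δ/Δ libraries it had the most reads of the 10 genes. All Δ/Δ values lay above all fl/fl values, by a small distance in Δ/Δ 2. The log2 fold change was 0.22 (SE 0.0634, 95% interval 0.07 to 0.37, adjusted p = 0.122). By DESeq2 the adjusted p was 0.0342, and without Δ/Δ 2 the edgeR value was 0.0465, both with a fold change below the limit for a call.

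Kmo (ENSMUSG00000039783.15, chr1:175620381-175662116, + strand) encodes kynurenine 3-monooxygenase, which hydroxylates kynurenine on the route from tryptophan to NAD. It was read at 220.1, 237 and 269 CPM in the fl/fl and at 228, 272 and 357 CPM in the Δ/Δ libraries. The highest libraries were fl/fl 3 and Δ/Δ 3, and the groups overlapped (log2 fold change 0.24, SE 0.162, adjusted p = 0.471).

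Ptprs (ENSMUSG00000013236.17, chr17:56412426-56476483, − strand) encodes a receptor-type tyrosine phosphatase of the LAR group that restrains pDC activation. It stood at 271, 293 and 271 CPM in the fl/fl and at 307, 278 and 345 CPM in the Δ/Δ libraries. Only Δ/Δ 2 lay within the fl/fl range (log2 fold change 0.16, SE 0.0864, 95% interval -0.05 to 0.36, adjusted p = 0.376).

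Bcl11a (ENSMUSG00000000861.15, chr11:24078056-24174123, + strand) encodes a zinc finger transcription factor required for the development of B cells and pDCs. Levels were 58.7, 55.3 and 64.2 CPM in the fl/fl and 75.0, 61.9 and 101 CPM in the Δ/Δ libraries. Again only Δ/Δ 2 lay within the fl/fl range, and Δ/Δ 3 was the highest (log2 fold change 0.42, SE 0.17, 95% interval 0.02 to 0.82, adjusted p = 0.242). An antisense gene, 4930538E20Rik, shares 316 of the 13175 exon bases of Bcl11a, and no source used here names the strand setting of the counts, so that reads over those bases could not be assigned with certainty.

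Runx1 (ENSMUSG00000022952.17, chr16:92601466-92826149, − strand) encodes a DNA-binding Runx protein active in blood stem cells and several dendritic cell lineages. It was read at 165, 177 and 177 CPM in the fl/fl and at 165, 217 and 184 CPM in the Δ/Δ libraries. Here Δ/Δ 2 was the highest and Δ/Δ 1 lay next to fl/fl 1 (log2 fold change 0.12, SE 0.101, 95% interval -0.12 to 0.36, adjusted p = 0.550). The antisense gene Gm26626 shares 106 of its 12025 exon bases.

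A gene was called when its adjusted p over all genes tested was under 0.05 and its log2 fold change at least 1 in either direction. By this rule 0 of the 10 genes were called, against 1.86% of all genes tested (0.993% higher and 0.869% lower). By the adjusted p alone it was likewise 0 of 10, against 3.88% (2.03% higher and 1.85% lower). An unadjusted p under 0.05 was reached by 5 of the 10, Siglech, Bst2, Ly6a, St8sia4 and Bcl11a, and by 19.4% of all genes tested. Other tools gave other counts: DESeq2's Wald test called 2 of the 10 and 2.99% of all genes, and limma-voom called 1 of the 10 and 1.9% of all genes. A log2 fold change of at least 1, whatever its p, was seen for 2 of the 10, Siglech and Ly6a, against 5.96% of all genes.

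The libraries of the 2 genotypes did not overlap for 4 of the 10 genes (40%), 2 higher and 2 lower in Δ/Δ cells, while they did not overlap for 26% of all genes tested (13.7% higher and 12.3% lower). Of the 10 fold changes 8 were above 0 and 2 below, with a median of 0.14 on the log2 scale, where the median of all genes tested was 0.0018. Between Δ/Δ libraries the 10 genes did not move as a unit. Δ/Δ 3 was the highest of its genotype for 5 of them (Siglech, Rnase6, Ptprs, Kmo and Bcl11a) and the lowest for 0, and Δ/Δ 2 was the lowest for 6. The 10 genes summed to 1928 to 1960.5 CPM in the fl/fl and 1919.7 to 2225 CPM in the Δ/Δ libraries, and Rnase6, Ptprs, St8sia4 and Kmo made up 71.8 to 77.8% and 79.4 to 80.4% of that sum.

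**Figure D2:**
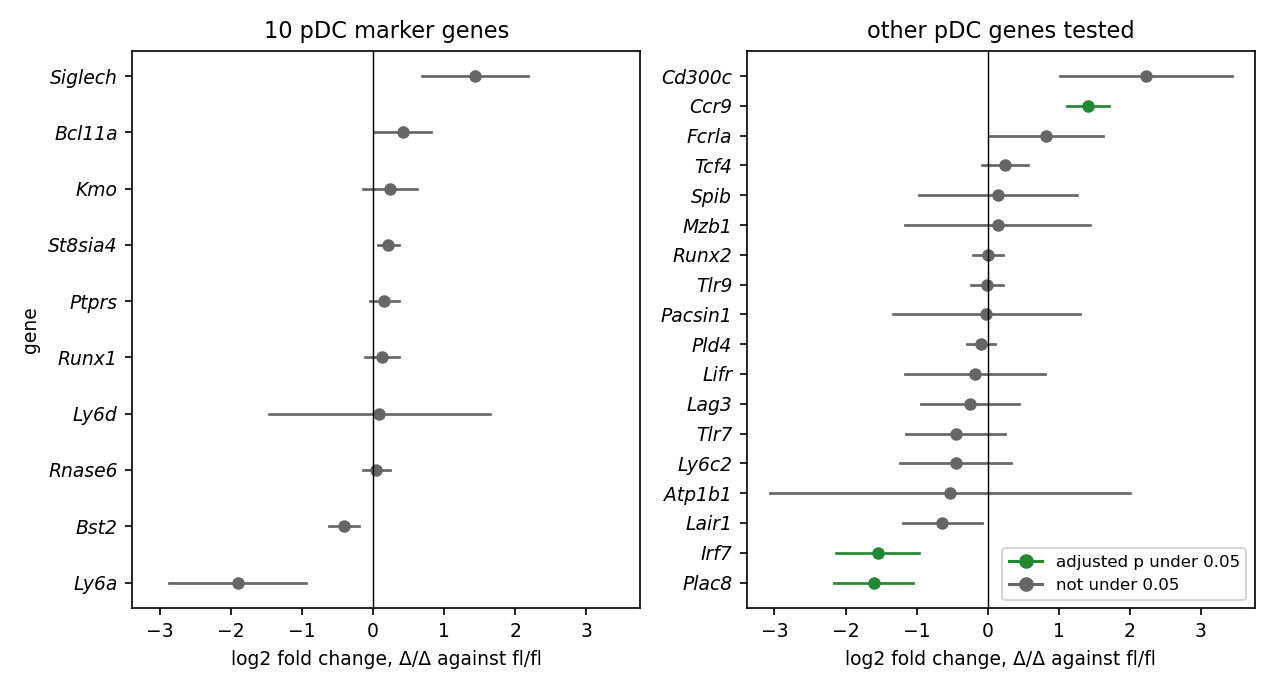
Log2 fold change of Δ/Δ against fl/fl libraries (x axis) with its 95% interval for the 10 pDC marker genes (left) and other pDC genes tested (right); green marks an adjusted p under 0.05, and 3 libraries stand in each genotype. Siglech (1.44) and Ly6a (-1.91) had the largest fold changes on the left, none of them green, while Ccr9, Irf7 and Plac8 are green on the right.

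Expressed per kilobase of exon, the levels of the 10 genes in fl/fl cells ranged from 2.67 CPM (Siglech) to 127 CPM (Ly6a). Exons were merged over all annotated transcripts of a gene. The length of the transcripts expressed was not measured, so that ranks between genes are approximate. The order from the top was Ly6a (127), Rnase6 (122), Bst2 (111), Kmo (51.3), St8sia4 (29.99), Ptprs (18.6), Runx1 (14.4), Bcl11a (4.51), Ly6d (2.92) and Siglech (2.67). In this order Ly6a, Rnase6 and Bst2 differed by less than the SD of Ly6a (50.1), and Ly6d and Siglech by less than the SD of Ly6d (1.87). In Δ/Δ cells the order was Rnase6 (127), Bst2 (83.7), Kmo (60.4), St8sia4 (34.8), Ly6a (33.9), Ptprs (20.7), Runx1 (15.7), Siglech (7.25), Bcl11a (6.02) and Ly6d (3.11). Ly6a thus moved from above 97.6% of all genes tested to above 89.1%. Its Δ/Δ level differed from that of St8sia4 by less than its own SD (16.4), and the Δ/Δ levels of Siglech and Bcl11a differed by less than the SD of Siglech (3.35). For comparison, the cDC1 gene Xcr1 stood at 100.1 CPM per kilobase in the fl/fl and 37.5 in Δ/Δ cells, and the means of Rnase6 and Bst2 lay above it in both genotypes.

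**Figure D3:**
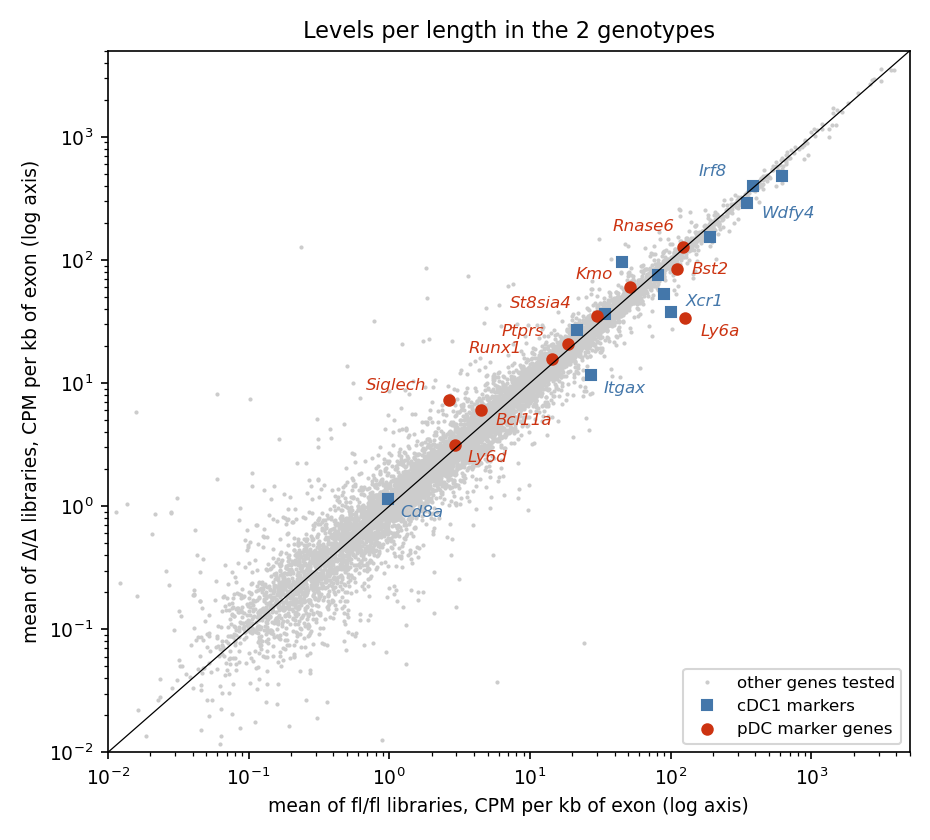
Mean level per length (CPM per kilobase of exon, log axes) in fl/fl (x axis) and Δ/Δ libraries (y axis), 3 libraries each; grey points are other genes tested, blue squares cDC1 markers and red circles the 10 pDC marker genes, and the line marks equal levels. Siglech lies above the line (2.67 and 7.25) and Ly6a below it (127 and 33.9), and 8 of the 10 genes sit close to it.

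Among relatives of the surface receptors, 5 other Siglec genes were tested and none was called. Cd22, an inhibitory Siglec of B cells and dendritic cells, stood at 5.01, 7.85 and 10.2 CPM in the fl/fl and 12.4, 28.0 and 43.9 CPM in the Δ/Δ libraries, without overlap (log2 fold change 1.87, adjusted p = 0.0782). Cd33, a myeloid Siglec, was read at 21.9, 32.1 and 34.8 CPM against 52.3, 29.7 and 82.1 CPM, with overlap (0.89, adjusted p = 0.233). Siglecg (0.15, adjusted p = 0.801) and Siglecf (-0.99, adjusted p = 0.333) overlapped as well. Like Siglech, all 5 were highest in Δ/Δ 3 among the Δ/Δ libraries.

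Of 14 Ly6 genes found in the files, 6 had no read in any library and 6 were tested, Ly6a and Ly6d included. Ly6e, an interferon-induced Ly6 protein, was the most abundant of them and stood at 1102, 1012 and 845 CPM in the fl/fl and 745, 629.5 and 569.99 CPM in the Δ/Δ libraries, without overlap (log2 fold change -0.61, SE 0.128, adjusted p = 0.0505). Psca, a Ly6 relative first known from prostate, was called higher (adjusted p = 0.0404) from 0, 0.111 and 0.0424 CPM in fl/fl to 1.14, 16.5 and 3.30 CPM in the Δ/Δ libraries, a rise carried most by Δ/Δ 2. The call of Psca was lost by limma-voom (adjusted p = 0.154) and without fl/fl 1 (0.190), fl/fl 2 (0.168), fl/fl 3 (0.148) or Δ/Δ 3 (0.0592). Ly6c2 (-0.45, adjusted p = 0.503) and Ly6i (-0.06, adjusted p = 0.919), both near 3 CPM, overlapped between genotypes. Since several Ly6 genes lie side by side and share sequence, and STAR counts only reads that map to 1 place, their levels carry an uncertainty that the replicates do not show.

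Relatives of the enzymes were few in these cells. Of 12 RNase A genes 8 had no read, and Rnase6 was the only one with enough reads for the test. Of the ST8 sialyltransferases, St8sia1, which makes the ganglioside GD3, lay at 17.1, 16.97 and 18.8 CPM in the fl/fl and 6.12, 10.3 and 14.7 CPM in the Δ/Δ libraries, below fl/fl in all 3 and opposite to St8sia4 (log2 fold change -0.76, adjusted p = 0.206), and St8sia6 overlapped (0.57, adjusted p = 0.584). The LAR phosphatase Ptprf was read near 1 CPM (adjusted p = 0.916).

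The kynurenine pathway around Kmo held 9 tested genes, of which 1 passed the adjusted p and 0 reached the fold limit for a call. Kynu, the kynureninase that acts downstream of Kmo, rose from 81.2, 75.3 and 84.3 CPM to 111, 139 and 146 CPM (log2 fold change 0.72, SE 0.107, adjusted p = 0.0168). Leaving out fl/fl 1, 2 or 3 gave adjusted p-values of 0.107, 0.107 and 0.0581 for it. Haao, the next enzyme of the route to NAD, stood at 50.8, 52.4 and 51.8 CPM against 42.5, 43.1 and 48.4 CPM (-0.21, adjusted p = 0.182), lower in all 3 Δ/Δ libraries. Ido1, the interferon-induced enzyme of the first step, was at about 1 CPM in every library (-0.04, adjusted p = 0.972). Kyat3 (0.66, adjusted p = 0.262), Afmid (0.09, adjusted p = 0.872), Kyat1 (-0.14, adjusted p = 0.847), Qprt (-0.33, adjusted p = 0.624) and Ido2 (0.19, adjusted p = 0.926) were low and overlapped.

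Beside Runx1, Runx3 stood at 124, 141 and 144 CPM in the fl/fl and 115, 131 and 126 CPM in the Δ/Δ libraries (log2 fold change -0.14, adjusted p = 0.401), and Runx2 at 20.6 to 22.8 and 21.0 to 23.1 CPM (0.01, adjusted p = 0.979). The shared partner Cbfb was at 300.1, 293 and 283 CPM against 318, 289 and 251 CPM (-0.03, adjusted p = 0.889). Bcl11b, the T cell relative of Bcl11a, had too few reads for the test.

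A further list of 25 genes known from pDCs, Ccr9 and the transcription factors included, was read beside the 10. Of these 19 were tested, and 2 were called higher and 2 lower. Ccr9, a chemokine receptor of pDCs and gut-homing cells, rose from 23.9, 20.7 and 23.9 CPM to 69.9, 60.3 and 51.9 CPM (log2 fold change 1.41, SE 0.125, adjusted p = 0.00333). Irf7, the interferon-induced factor behind type I interferon production in pDCs, fell from 113, 93.9 and 77.0 to 24.6, 27.3 and 45.3 CPM (-1.54, SE 0.248, adjusted p = 0.0209), and lost the call without fl/fl 1 (adjusted p = 0.110) or fl/fl 2 (0.105). Plac8 fell from 122, 123 and 106 to 31.2, 29.2 and 55.0 CPM (-1.61, SE 0.236, adjusted p = 0.0161), and lost it without fl/fl 1 (adjusted p = 0.0940), fl/fl 2 (0.0928) or fl/fl 3 (0.0515).

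Of the 5 genes of this list with the highest mean CPM, Irf7 and Plac8 passed and Pld4, Tlr9 and Tcf4 did not. Pld4, an endosomal exonuclease and the highest of the list by CPM, was read at 469, 516 and 507 CPM in the fl/fl and 467, 422 and 515 CPM in the Δ/Δ libraries (log2 fold change -0.09, adjusted p = 0.602). Tlr9, the endosomal DNA sensor, was at 127, 128 and 137 against 113, 130.1 and 145 CPM (-0.01, adjusted p = 0.953). Tcf4, which encodes E2-2, was at 54.4, 59.5 and 62.3 against 60.3, 63.0 and 85.2 CPM (0.24, adjusted p = 0.384). Other genes of the list had next to no reads: over all 6 libraries Klk1 had 1 read, Klk1b27 2, Dntt 9 (all in fl/fl 3), Cox6a2 11, Upb1 12 and Grm8 0. A gene with 0 reads is limited to 0.0392 CPM in the fl/fl and 0.0436 CPM in the Δ/Δ libraries, by 3 reads pooled over a genotype. The median log2 fold change of the 19 genes was -0.02, and 3 lay higher and 3 lower without overlap. One of these was Cd300c, named after its values were seen, with 3.93, 4.96 and 11.1 CPM in the fl/fl and 15.8, 29.7 and 48.2 CPM in the Δ/Δ libraries (2.23, adjusted p = 0.0634).

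The order of the libraries was compared with that of other marker lists. Ly6d had its highest values in fl/fl 1 and Δ/Δ 2 and its lowest in fl/fl 2 and Δ/Δ 1. Of 8 tested B lineage genes 0 were called. The highest fl/fl library was fl/fl 1 for 5 of them and the lowest fl/fl 2 for 5, and the highest Δ/Δ library was Δ/Δ 2 for 7 and the lowest Δ/Δ 1 for 8. The 14 B lineage genes summed to 31.2 to 41.8 CPM in the fl/fl and 27.4 to 86.7 CPM in the Δ/Δ libraries. Cd22, highest in Δ/Δ 3, alone gave 5.01 to 10.2 and 12.4 to 43.9 CPM of these sums. Of the precursor genes in this list, Rag2, Igll1 and Vpreb3 had no read, Rag1 had 1 read in all, Vpreb1 had 2 to 7 reads in each library, and Ebf1 had 23, 3 and 7 reads in the fl/fl and 1, 13 and 4 reads in the Δ/Δ libraries. The part of B lineage RNA in the level of Ly6d was not tested.

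Ly6a and Bst2 stood beside other interferon-induced genes. Of 30 such genes, which include Irf7 but none of the 10, 15 were called lower and 0 higher (0.869% and 0.993% of all genes), 23 lay lower and 1 higher without overlap, and the median log2 fold change was -1.34. Mx1, an antiviral GTPase, fell from 165, 159 and 147 to 83.6, 83.8 and 99.1 CPM (adjusted p = 0.00472). Both Ly6a and Bst2 were highest in fl/fl 1 and lowest in fl/fl 3 among the fl/fl libraries, as fl/fl 1 was highest in 21 and fl/fl 3 lowest in 28 of the 30. Among Δ/Δ libraries the order was another: Ly6a and Bst2 were highest in Δ/Δ 1 and lowest in Δ/Δ 2, where 20 of the 30 genes were highest in Δ/Δ 3. Their part in the levels of Ly6a and Bst2 was not tested.

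**Figure D4:**
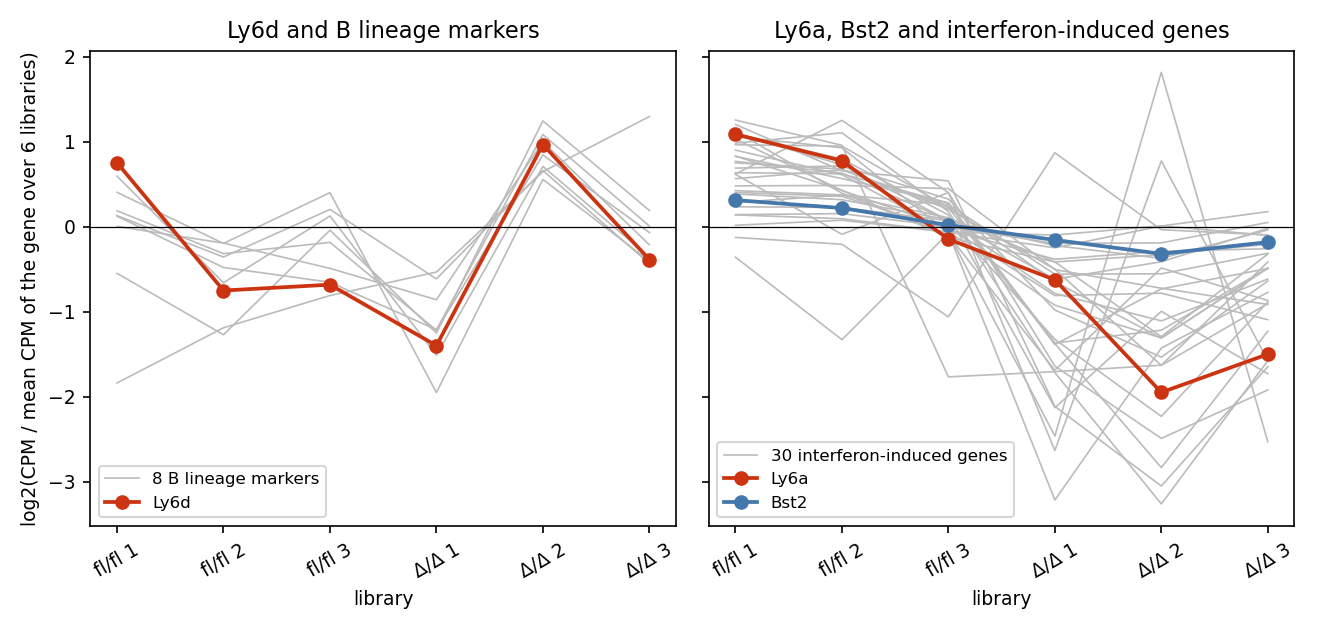
Level of each gene in each library relative to its own mean over 6 libraries (y axis, log2 of CPM over mean CPM), for Ly6d and 8 B lineage genes (left) and for Ly6a, Bst2 and 30 interferon-induced genes (right, grey); lines join the values of 1 gene and imply no order of libraries. Ly6d and 7 of the 8 B lineage genes peak in Δ/Δ 2 among the Δ/Δ libraries, and Ly6a and Bst2 are lower in all Δ/Δ than in all fl/fl libraries, as 23 of the 30 interferon-induced genes are.

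Siglech was set beside the list of other pDC genes and the lists of other cells. The 10 cDC2 markers summed to 224, 248 and 371 CPM in the fl/fl and 519.6, 612 and 753 CPM in the Δ/Δ libraries, without overlap. The highest sum was in Δ/Δ 3, where Siglech was also highest. Gene by gene, 5 of these 10 were highest in Δ/Δ 3 and 5 in Δ/Δ 2, where Siglech was lowest. Δ/Δ 3 was also the highest Δ/Δ library for 7 of 12 cDC1 markers, 20 of 30 interferon-induced genes and 11 of the 19 other pDC genes tested. Of these pDC genes, 6 were highest in Δ/Δ 2 and 2 in Δ/Δ 1. Δ/Δ 3 was the highest for 3 of 7 monocyte and macrophage genes and 1 of 8 B lineage genes. Monocyte and macrophage genes summed to 692 to 953 CPM in the fl/fl and 1441 to 1798 CPM in the Δ/Δ libraries, mostly reads of Ccr2. Of the 7 genes of this list that were tested 0 were called and 2 passed the adjusted p. Ccr2, a chemokine receptor, rose from 659, 812 and 909 to 1391, 1501 and 1723 CPM (log2 fold change 0.96, adjusted p = 0.0130). Without fl/fl 2 its adjusted p was 0.0813, while the log2 fold change stayed at 0.84 to 1.06 over all alternatives. Adgre1, which encodes F4/80 of macrophages, rose from 21.0, 26.0 and 28.4 to 38.3, 56.0 and 47.2 CPM (0.91, adjusted p = 0.0317), which was lost without fl/fl 1 (0.143), fl/fl 2 (0.148), fl/fl 3 (0.0756) or Δ/Δ 3 (0.0774). Csf1r, the receptor for macrophage growth factor, stood at 3.58 to 6.80 CPM with overlap, and C1qa and Mertk stayed below 1 CPM in every library. Of 6 tested progenitor genes 0 were called, and neutrophil (3.12 to 22.0 CPM) and T and NK cell genes (2.72 to 12.0 CPM) gave low sums in all libraries. The part of pDCs or of these other cells in the level of Siglech was not tested.

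Whether Siglech, Bst2 and Ly6a passed the threshold depended on the setting. Over 12 alternative settings Siglech kept a log2 fold change of 1.00 to 1.66 with an adjusted p under 0.05 in 5, Ly6a one of -2.36 to -1.64 with 5, and Bst2 one of -0.49 to -0.34 with 3. St8sia4 passed in 2 settings, with log2 fold changes of 0.18 to 0.27 over all 12. In 2-against-3 comparisons without an fl/fl library, Siglech, Bst2, Ly6a and St8sia4 all lay above the threshold.

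**Figure D5:**
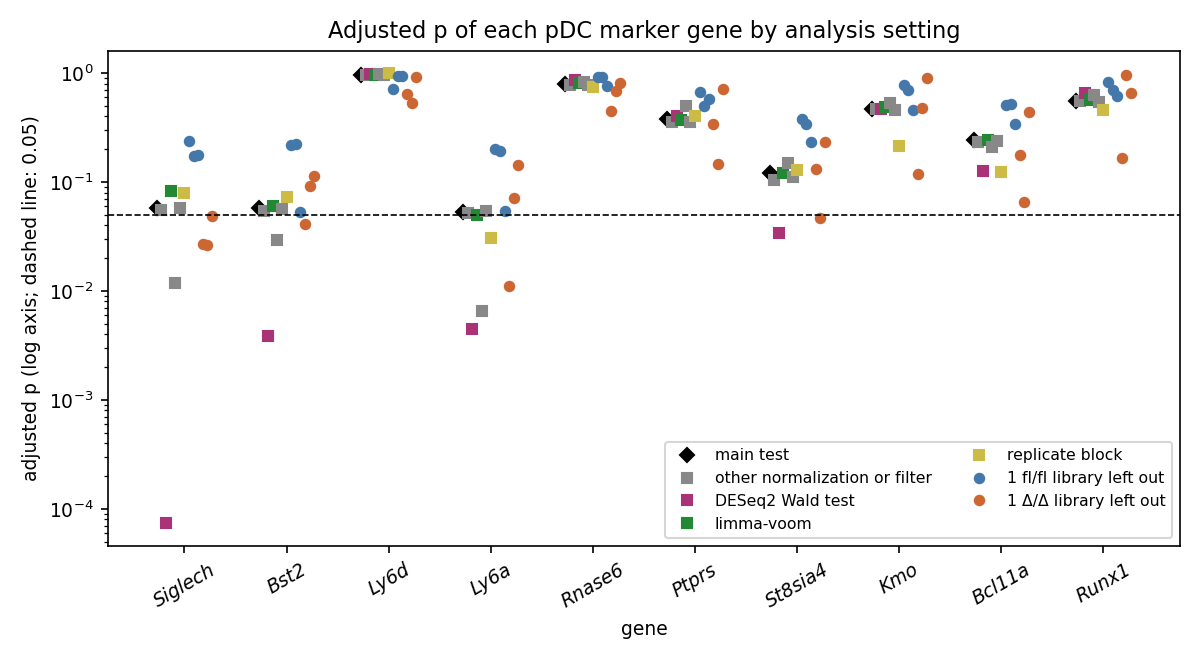
Adjusted p (log axis) of each of the 10 pDC marker genes by the main edgeR test (black), by other normalizations, filters and tools (squares) and with 1 library left out (circles); the dashed line marks 0.05. Siglech, Bst2, Ly6a and St8sia4 lie on both sides of the line, from 7.38e-05 by DESeq2 to 0.239 without fl/fl 1 for Siglech, and 6 of the genes (Ly6d, Rnase6, Ptprs, Kmo, Bcl11a and Runx1) stay above it in every setting.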

How the data were processed

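RNA of sorted cDC1 was sequenced in 6 libraries, 3 per genotype as the titles name them. The authors used STAR 2.6.1a (2-pass mode, genome mm10, Gencode vM19 genes) to align paired-end reads and to count uniquely mapped reads per gene, and deposited these raw counts, neither normalized nor pooled. Reads not assigned to a single gene (20.3 to 20.9%, unmapped reads included) stayed out of library sizes and tests. Identifiers were matched to GENCODE M21 (54495 of 54532).

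Counts were tested with edgeR 4.0.16 in R 4.3.3 (TMM, minimum count 10 and total 15, quasi-likelihood test on genotype), with Benjamini-Hochberg adjustment over 12894 genes. CPM were scaled by TMM factors (0.9891 to 1.01). Levels per length used merged exons. Chi-square per degree of freedom over genes was 6.35 to 10.4 between fl/fl libraries and 27.9 to 38.5 between Δ/Δ libraries, so all libraries counted as replicates. The Δ/Δ libraries thus differed more from each other than the fl/fl libraries did. Floors of 3 reads cover counting error alone, because PCR duplicates count as reads. The intervals given for fold changes come from the edgeR fit and include the variation between replicates. Alternatives were DESeq2 1.42.0 (size factors, Wald test), limma-voom 3.58.1, no filter, a stricter filter (10 reads in 3 libraries and a mean of 1 CPM), a replicate term, no fold limit and each library left out. Scripts were tested on simulated counts.

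The 10 genes and all lists were chosen with earlier results of these data known. Named were the 10 genes, relatives at 1 CPM or called, other pDC genes that were called, highest or without reads, and leading marker genes, some of which are not reported here. Promoter sequences are RefSeq's. Python 3.11.15, pandas 2.3.3 and matplotlib 3.10.9 were used for motifs and figures.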

Additional observations from a re-analysis of the deposited data

How the results depend on the processing

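The count of called genes was 240 in the analysis reported, 385 by DESeq2's Wald test, 500 with no fold limit and 74 to 579 with a library left out, lowest without fl/fl 1 (74), fl/fl 2 (80) and fl/fl 3 (154) and highest without Δ/Δ 1 (579) and Δ/Δ 2 (370). Of the 10 pDC marker genes 0 were called in the analysis reported, 2 by DESeq2 and with no filter on low counts (Siglech and Ly6a), 1 by limma-voom (Ly6a), 1 with the replicate block (Ly6a) and 0 to 2 with a library left out, where 2 were called without Δ/Δ 1 and 1 without Δ/Δ 2. Of the other pDC genes 4 were called in the analysis reported and 1 to 6 with a library left out, 1 without fl/fl 1 and 1 without fl/fl 2. The fold change of Ly6d changed sign by limma-voom (-0.091) and when fl/fl 2 (-0.17), fl/fl 3 (-0.15) or Δ/Δ 2 (-0.76) was left out, with a range of -0.76 to 0.76 over left-out libraries, and that of Rnase6 without Δ/Δ 3 (-0.040), with a range of -0.040 to 0.10. Of 120 fold changes of the 10 genes under alternatives, 106 kept their direction and side of the call, 9 became calls and these 5 changed sign. The cause was not tested.

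Replicate numbers were checked for pairing: deviations of same-numbered libraries from their genotype means correlated at 0.091, -0.148 and 0.2. Differently numbered libraries correlated at -0.221 to 0.152. With 3 libraries per genotype, these values cannot show whether the numbers pair the libraries. With the replicate block 207 genes were called in place of 240, with Ly6a (adjusted p = 0.0304) among them and Irf7 not (0.0508), and not every library correlated best with its own number. In depth Ly6d was the most limited of the 10 genes in CPM, as it rested on 21 to 98 reads a library.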
